A study of Mus musculus with 4 samples.

Results

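Of the 21779 mouse protein-coding genes placed on the chromosomes of GRCm38 by RefSeq, 89 encode parts of the mitochondrial respiratory chain by their symbols. They were taken by name alone: 40 genes of complex I (Nduf symbols of the a, b, c, s and v series), 4 of complex II (Sdha to Sdhd), 9 of complex III (Uqcr symbols and Cyc1), 18 of complex IV (Cox4 to Cox8 symbols), 17 of complex V (Atp5 symbols) and Cycs for cytochrome c. Assembly factors are not members. The chromatin came from thymus of mice with the p53 AD/AD genotype at 4 weeks of age, and p53 or PPAR-alpha was immunoprecipitated and the DNA sequenced. The AD allele encodes a p53 that the study describes as a dimer, and every library carries it, so no comparison with wild-type p53 can be made. There were 2 p53 libraries read at 50 nt, 1 PPAR-alpha library read at 75 nt and 1 input library that is not analysed here, so antibody and read length changed together. The labels do not say whether the p53 libraries came from separate mice, and the spread between them may be technical.

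The respiratory chain passes electrons from NADH through complex I, or from succinate through complex II, to complex III, then by cytochrome c to complex IV, where oxygen is reduced. The proton gradient built on the way drives complex V, the ATP synthase. Most subunits are encoded in the nucleus and are made in nearly all tissues, while several complex IV subunits also have forms restricted to muscle, lung or testis. The nuclear respiratory factor NRF1 and the ETS factor GABP are the classic activators of these genes, PPAR-alpha is a nuclear receptor best known for control of fatty acid oxidation, and p53 is a tumour suppressor with reported effects on respiration.

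Each deposited list gives summits, the highest points of called peaks, with the authors' own score, taken here to be on a −log10 probability scale. There were 3608 and 4767 summits in p53 replicates 1 and 2 and 4070 in PPAR-alpha. Most scores were low, and 5.38%, 4.3% and 16.0% of summits reached 10 or more. The tissue label was checked against cell markers: all 12 thymocyte genes had a summit within 5 kb in at least 1 list, beside 24.8% of all genes, and none of the 4 B cell or 5 thymic epithelium genes had one. Of the myeloid genes 2 of 4 had one, Cd68 in each p53 replicate and Itgam in PPAR-alpha, and of the adipocyte and striated muscle genes 1 of 4 each, Fabp4 and Ckm. In whole tissue, binding in few cells and weak binding in many cells cannot be told apart. Read numbers were not used here.

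The promoters below are those on which the results turn, printed 5′ to 3′ in the direction of transcription, from 250 bases before to 50 after the transcript start, as RefSeq gives them on GRCm38.p6. Capitals mark matches to the NRF1 motif (such as GCGCATGCGC), Sp1 (GGGGCGGGG) or CCAAT letters on either strand, and no match to ETS, YY1, TATA, paired PPAR or p53 letters fell in these 7 windows. Cox7a2l is shown because all 3 lists had a summit inside the window.
Cox7a2l, chr17:83514284-83514583, minus strand: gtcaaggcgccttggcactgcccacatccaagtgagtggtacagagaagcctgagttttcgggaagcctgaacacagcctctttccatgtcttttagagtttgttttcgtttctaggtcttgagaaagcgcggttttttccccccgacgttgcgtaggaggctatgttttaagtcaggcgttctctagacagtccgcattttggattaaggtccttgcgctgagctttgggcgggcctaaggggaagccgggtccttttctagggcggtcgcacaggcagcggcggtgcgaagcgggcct
Uqcrc1, Atp5pb, Atp5g2 and Cox6a1 are shown for p53 summits of both replicates within 214 bp of the transcript start, those of Uqcrc1 replicate 1 and Atp5g2 replicate 2 falling just past the window.
Uqcrc1, chr9:108936398-108936697, plus strand: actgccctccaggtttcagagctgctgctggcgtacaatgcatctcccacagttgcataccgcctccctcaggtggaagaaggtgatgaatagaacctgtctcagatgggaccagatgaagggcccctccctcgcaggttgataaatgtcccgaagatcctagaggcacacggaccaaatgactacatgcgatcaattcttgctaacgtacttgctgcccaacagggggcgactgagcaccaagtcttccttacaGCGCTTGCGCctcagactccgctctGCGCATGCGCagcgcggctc
Atp5pb, chr3:105959214-105959513, minus strand: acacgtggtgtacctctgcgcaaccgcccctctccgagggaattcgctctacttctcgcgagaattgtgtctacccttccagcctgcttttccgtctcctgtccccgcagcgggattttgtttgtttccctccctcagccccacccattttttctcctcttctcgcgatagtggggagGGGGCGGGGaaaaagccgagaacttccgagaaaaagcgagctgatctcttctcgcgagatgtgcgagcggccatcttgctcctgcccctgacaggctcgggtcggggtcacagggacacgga
Atp5g2, chr15:102670998-102671297, minus strand: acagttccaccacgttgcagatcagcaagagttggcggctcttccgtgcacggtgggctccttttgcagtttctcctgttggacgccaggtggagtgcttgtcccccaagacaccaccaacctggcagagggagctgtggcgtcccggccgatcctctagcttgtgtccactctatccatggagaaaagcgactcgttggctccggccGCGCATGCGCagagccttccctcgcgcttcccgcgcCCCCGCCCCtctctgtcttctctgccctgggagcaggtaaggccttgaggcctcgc
Cox6a1, chr5:115348909-115349208, minus strand: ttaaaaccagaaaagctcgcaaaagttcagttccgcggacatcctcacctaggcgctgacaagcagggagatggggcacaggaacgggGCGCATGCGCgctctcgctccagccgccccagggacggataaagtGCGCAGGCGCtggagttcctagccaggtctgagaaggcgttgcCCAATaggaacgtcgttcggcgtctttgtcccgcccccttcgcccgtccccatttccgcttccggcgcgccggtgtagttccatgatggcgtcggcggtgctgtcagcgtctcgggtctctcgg
Atp5b is shown for the highest PPAR-alpha score at which a member was the nearest gene, and Cox7a1 as a muscle isoform gene without a summit.
Atp5b, chr10:128083057-128083356, plus strand: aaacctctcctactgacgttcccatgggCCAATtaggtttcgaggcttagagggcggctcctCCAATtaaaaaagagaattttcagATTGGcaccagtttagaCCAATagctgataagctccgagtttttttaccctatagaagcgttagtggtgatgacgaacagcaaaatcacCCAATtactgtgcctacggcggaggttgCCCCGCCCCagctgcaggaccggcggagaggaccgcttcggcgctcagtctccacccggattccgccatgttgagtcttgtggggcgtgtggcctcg
Cox7a1, chr7:30183921-30184220, plus strand: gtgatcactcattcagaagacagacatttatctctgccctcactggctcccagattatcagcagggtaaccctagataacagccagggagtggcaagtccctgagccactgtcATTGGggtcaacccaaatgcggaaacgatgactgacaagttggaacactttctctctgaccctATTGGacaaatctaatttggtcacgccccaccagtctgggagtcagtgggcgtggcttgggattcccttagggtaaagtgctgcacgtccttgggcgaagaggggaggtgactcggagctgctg

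How many respiratory chain genes lay near a summit? A gene was counted when a summit fell within 5 kb of either end. In p53 replicate 1 this held for 21 of the 89 genes (23.6%, exact Clopper-Pearson 95% interval 15.2 to 33.8%), beside 13.0% of all protein-coding genes. In p53 replicate 2 it held for 34 (38.2%, 28.1 to 49.1%), beside 16.5% of all genes. In the PPAR-alpha list it held for 21 (23.6%, 15.2 to 33.8%), beside 12.4%. The share of respiratory chain genes was above that of all genes in each list. The intervals cover counting error only, genes are not replicates, and no test was run on these shares.

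The difference held at other distances. Within 1 kb of a gene end 17, 28 and 18 members had a summit in p53 replicate 1, replicate 2 and PPAR-alpha (19.1%, 31.5% and 20.2%), beside 9.26%, 11.9% and 8.84% of all genes. Within 20 kb the counts were 31, 42 and 30 (34.8%, 47.2% and 33.7%), beside 20.1%, 25.0% and 19.5%. The gap was smaller where a summit was given only to its nearest gene. Then 10 members (11.2%) remained in p53 replicate 1, beside 9.85% of all genes, 25 (28.1%) in replicate 2, beside 12.6%, and 13 (14.6%) in PPAR-alpha, beside 9.45%.

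**Figure D1:**
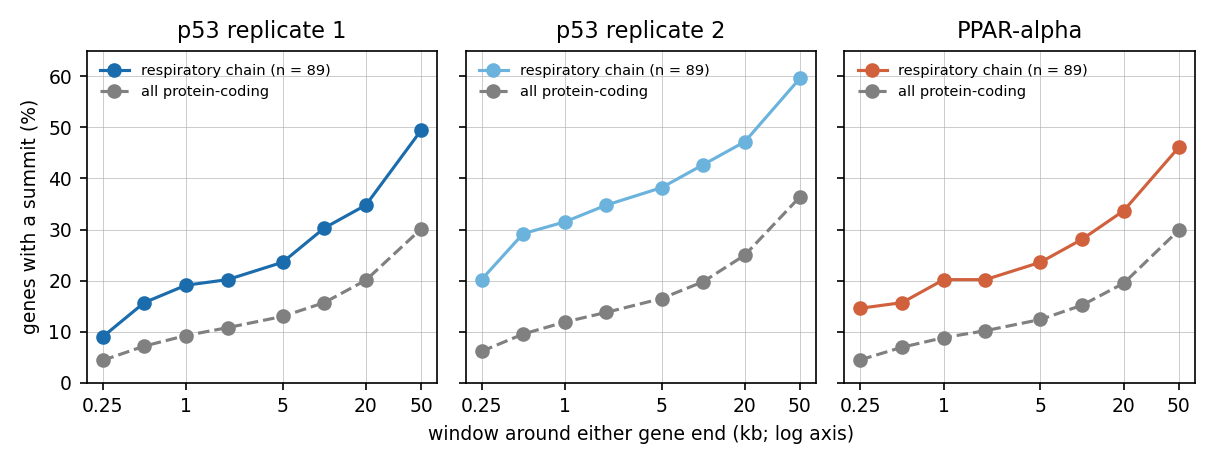
Share of genes (%) with a summit against the window around either gene end (kb, log axis), with 1 panel per list. Solid lines are the 89 respiratory chain genes and dashed lines all protein-coding genes, and at 5 kb they stand at 23.6% and 13.0% in p53 replicate 1, 38.2% and 16.5% in replicate 2, and 23.6% and 12.4% in PPAR-alpha.

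Which members did the lists share? In any list 44 members (49.4%) were near a summit, beside 24.8% of all genes, and 45 were in none. There were 18 members in exactly 1 list, 20 in exactly 2 and 6 in all 3. Each p53 replicate had a summit near 15 members (16.9%), beside 8.00% of all genes, which is 71.4% of the replicate 1 members and 44.1% of the replicate 2 members. The same shares over all genes were 61.5% and 48.6%. Exactly 1 p53 replicate had a summit near 25 members (28.1%), beside 13.5%. All 3 lists met at 6 members (6.74%, 2.51 to 14.1%), beside 4.89% of all genes, a share near the background. In each p53 replicate and not in PPAR-alpha were 9 members (10.1%), beside 3.11% of all genes, and in PPAR-alpha without either p53 replicate were 4 (4.49%), beside 3.36%. The p53 replicate 1 and PPAR-alpha lists had 9 members in common (10.1%, beside 6.45% of all genes), 42.9% of each, beside 49.6% and 52.2% over all genes. Replicate 2 and PPAR-alpha had 14 in common (15.7%, beside 7.45%), 41.2% and 66.7% of the 2 lists, beside 45.2% and 60.2%. A control shared by the lists would enter each of them, and its part in the overlap was not tested.

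**Figure D2:**
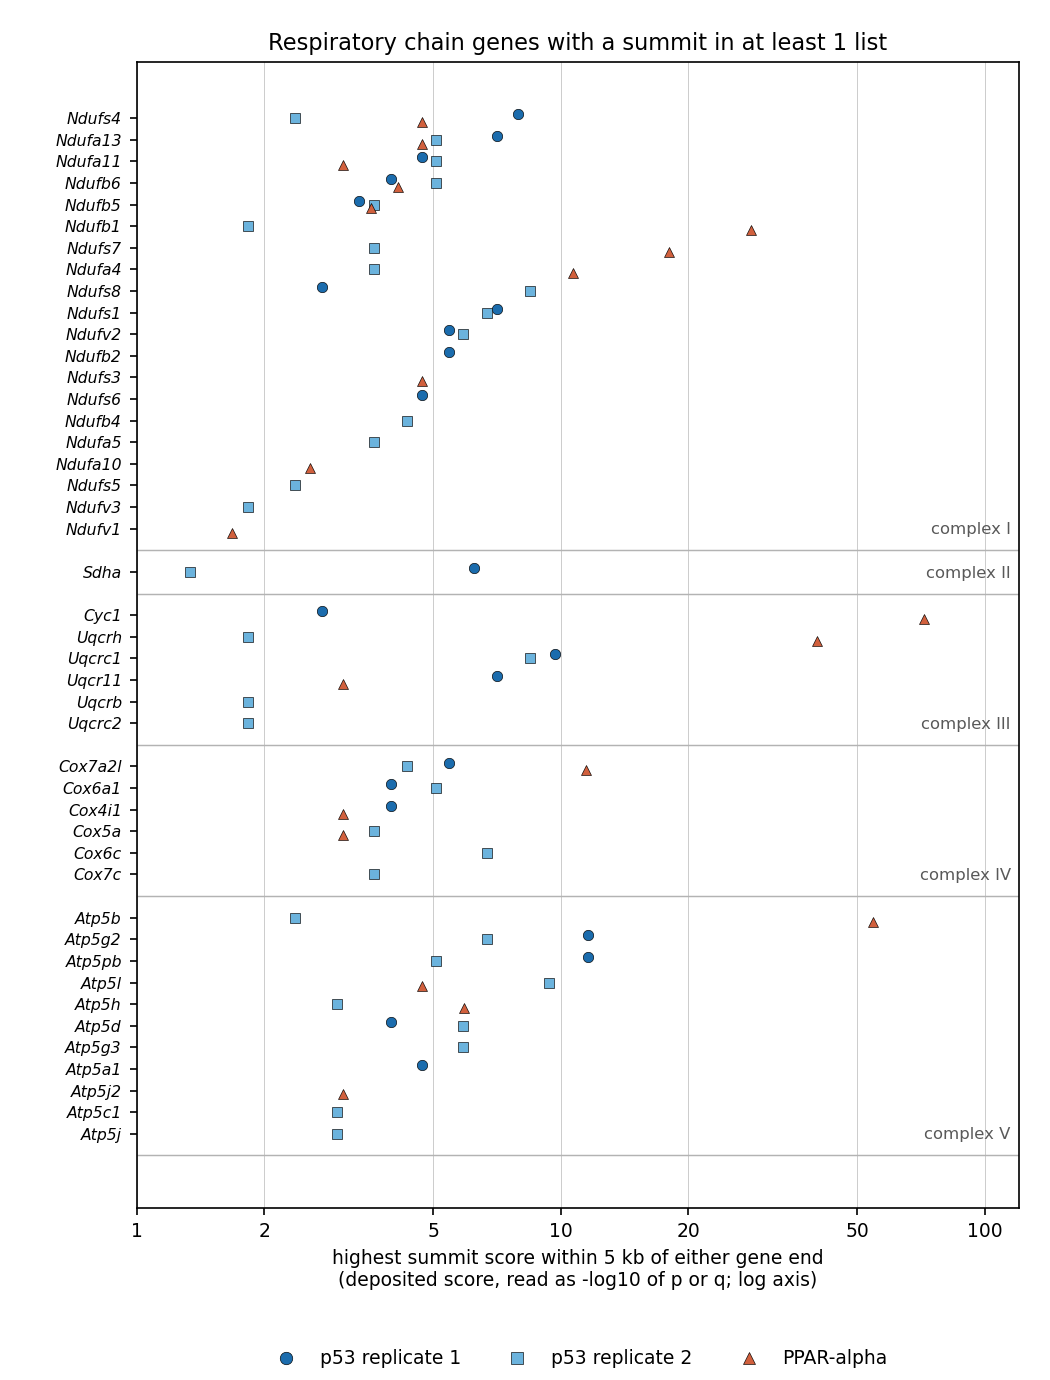
Highest score of a summit within 5 kb (deposited score, log axis) for each of the 44 respiratory chain genes with a summit in at least 1 list, grouped by complex, with 1 symbol per list. Scores of PPAR-alpha reach 71.9 at Cyc1 and 54.4 at Atp5b, and p53 scores stay at 11.6 or less.

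How did the complexes compare? Shares are to be read beside the 13.0%, 16.5% and 12.4% of all genes in p53 replicate 1, replicate 2 and PPAR-alpha. Complex V had 9 of 17 genes near a p53 replicate 2 summit (52.9%) and 4 of 17 in each of the other lists (23.5%). Complex I had 10, 15 and 11 of 40 genes in p53 replicate 1, replicate 2 and PPAR-alpha (25.0%, 37.5% and 27.5%). Complex III had 3, 4 and 3 of 9. Complex IV had 3, 5 and 3 of 18 (16.7%, 27.8% and 16.7%), the closest to the background of the complexes with more than 4 genes. Those 18 include 7 isoforms restricted in tissue, of which 0 were near a summit. The other 11 complex IV genes stood at 27.3%, 45.5% and 27.3%, near the shares of complex I or above them. Complex II had 1 of 4 genes in each p53 list and none in PPAR-alpha, and Cycs was in no list. In any list complex I had 20 of 40 genes (50.0%), complex II 1 of 4 and complex III 6 of 9 (66.7%). Complex IV had 6 of 18 (33.3%) and complex V 11 of 17 (64.7%), beside 24.8% of all genes. With 4 genes, complex II cannot be placed above, at or below 24.8%. Without the restricted isoforms complex IV stood at 54.5%. The order of the complexes changed with the window. Within 1 kb, where 9.26%, 11.9% and 8.84% of all genes were counted, the p53 replicate 2 share was 44.4% for complex III, 35.0% for complex I, 29.4% for complex V and 22.2% for complex IV. In any list it was then 20 of 40, 1 of 4, 4 of 9, 5 of 18 and 9 of 17 for complexes I to V, beside 19.1%. With groups this small, differences of a few genes between complexes were not tested. Of the 6 members in all 3 lists, 5 belong to complex I, which holds 40 of the 89 members. That is 12.5% of complex I, beside 4.89% of all genes, and was not tested. The 5 include Ndufb6, whose summits were all nearer to Smim27. In at least 1 list Ndufa11, Ndufa13 and Ndufb5 had only summits nearer to a neighbour (Vmac, Tssk6 and Mrpl47). With each summit given only to its nearest gene, 2 members stayed in all 3 lists (2.25%), beside 3.25% of all genes. Ndufs4 was then the only one from complex I.

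**Figure D3:**
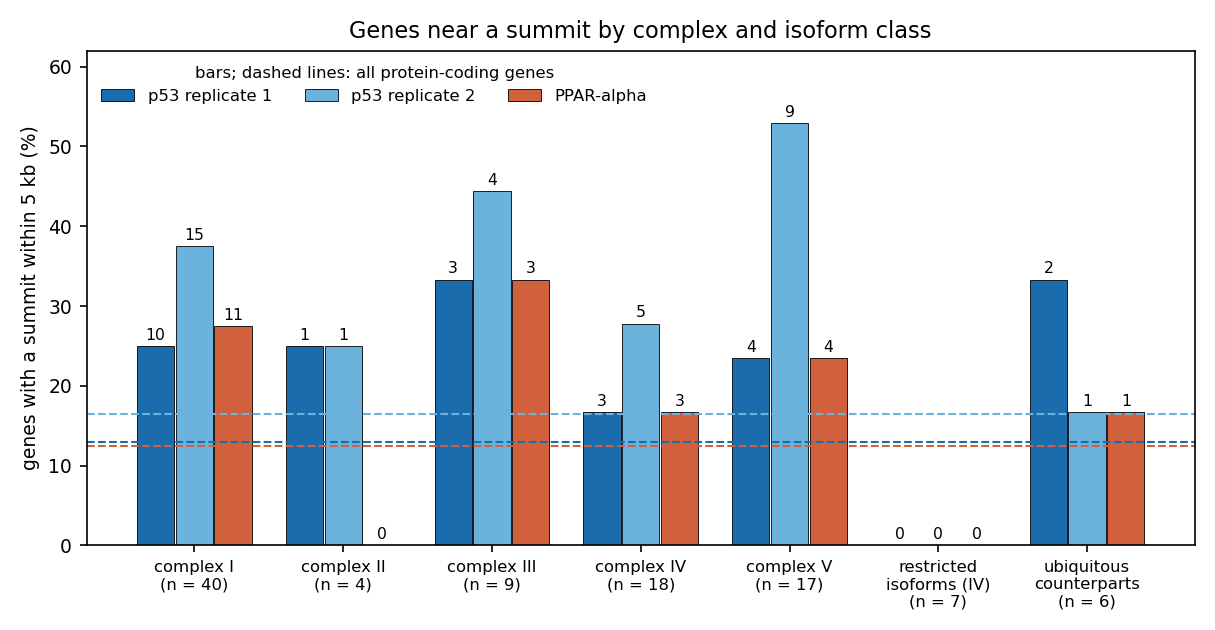
Share of genes (%) with a summit within 5 kb for each complex and for the complex IV isoform classes, as bars per list with the number of genes under each group. Dashed lines give all protein-coding genes (13.0%, 16.5% and 12.4%), and the restricted isoforms have no bar because 0 of 7 were near a summit.

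Complex I takes electrons from NADH through a flavin and a row of iron-sulphur clusters. Ndufs1, which carries several of the clusters, had p53 summits scoring 7.07 in replicate 1 and 6.72 in replicate 2, and none in PPAR-alpha. Both lay nearer to Eef1b2, a translation factor gene that starts beside it. Ndufv2, another iron-sulphur subunit, had p53 summits 348 bp and 294 bp inside the gene from its start, 54 bp apart, with scores of 5.45 and 2.37. A stronger replicate 2 summit of 5.88 lay 1464 bp beyond its other end. Ndufs8 had p53 summits 154 bp apart with scores of 2.74 and 3.62, and replicate 2 added one of 8.48 placed 368 bp upstream of its start, nearer to Aldh3b1. In the PPAR-alpha list Ndufs7 scored 18.0, its summit lying 308 bp upstream of the RefSeq transcript start, while Ndufs3 scored 4.70 and Ndufv1 1.68, the lowest score in that list.

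The accessory subunits of complex I include the 5 genes found in all 3 lists. Ndufs4, whose loss in mice gives a Leigh-like encephalopathy, had scores of 7.93, 2.37 and 4.70 in p53 replicate 1, replicate 2 and PPAR-alpha. Its replicate 2 and PPAR-alpha summits were 25 bp apart, and all 3 lay within 558 bp downstream of its start. Ndufa13, also known as GRIM-19, scored 7.07, 5.08 and 4.70. Its replicate 1 and PPAR-alpha summits were all nearer to the neighbour Tssk6, and only the replicate 2 summit was nearest to Ndufa13. A replicate 1 summit (7.07) and a PPAR-alpha summit (3.58) were 7 bp apart. Ndufa11 scored 4.70, 5.08 and 3.06, with summits from 278 bp upstream to 369 bp downstream of its start.

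Ndufb5 shares its start region with Mrpl47, a mitochondrial ribosomal protein gene, and scored 3.34, 3.62 and 3.58. Ndufb6 scored 3.99, 5.08 and 4.13, but these summits lay 991 to 1721 bp beyond its 3′ end and nearer to Smim27, so they do not mark its own start. Ndufb1 had a PPAR-alpha summit of 28.1, placed 84 bp upstream of its start and 63 bp from Cpsf2, an mRNA cleavage factor gene, and a p53 replicate 2 summit of 1.83. Ndufa4, named for complex I and since assigned to complex IV, had a PPAR-alpha summit of 10.7 placed 126 bp upstream and a p53 replicate 2 summit of 3.62 placed 72 bp from it, with none in replicate 1. Ndufs6 had p53 replicate 1 summits of 4.70 and 3.34, both nearer to Mrpl36, and none in the other lists.

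Complex II joins the citric acid cycle to the chain. Sdha, its flavoprotein, had a p53 replicate 1 summit scoring 6.24 placed 78 bp upstream of its start and 1 bp from the neighbour Ccdc127. The replicate 2 summit lay 201 bp downstream and scored 1.34, the lowest score in that list. The iron-sulphur subunit gene Sdhb and the membrane anchor genes Sdhc and Sdhd had none, and their nearest summits in any list were 9089, 26132 and 55717 bp away.

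In complex III, Uqcrc1, a core protein, had strong p53 summits in both replicates. They scored 9.72 and 8.48, lay 52 and 29 bp downstream of the transcript start, and 23 bp apart. The NRF1 letters of the promoter printed above span 5 to 14 and 30 to 39 bases after the start, so the replicate 2 summit lay 1 base before the later match and the replicate 1 summit past both, beyond the printed window. No PPAR-alpha summit lay closer than 82382 bp. Cyc1, the cytochrome c1 gene, had the highest PPAR-alpha score of any member, 71.9, but that summit lay 4971 bp from the gene and 63 bp from Maf1, a repressor of RNA polymerase III. Uqcrh, the hinge protein gene, had a PPAR-alpha summit of 40.2 and a replicate 2 summit of 1.83, 7 bp apart, both nearer to Lrrc41, at 9 and 16 bp. Uqcr11 had a p53 replicate 1 summit of 7.07 and a PPAR-alpha summit of 3.06, 21 bp apart and nearer to Mbd3. Uqcrfs1, the Rieske protein gene, had none closer than 215124 bp. The electron carrier gene Cycs, whose protein also triggers apoptosis when it leaves mitochondria, had its nearest summit 30106 bp away.

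In complex IV, Cox7a2l was the single member with replicate 1 summits within 100 bp of both a replicate 2 and a PPAR-alpha summit. That is 1.12% of members, beside 1.24% of all genes counted by this rule. The Cox7a2l protein links complexes III and IV into supercomplexes. Summits of p53 replicate 1, p53 replicate 2 and PPAR-alpha lay at 83514412, 83514502 and 83514487 of chromosome 17, which is 79, 169 and 154 bp upstream of the transcript start. They scored 5.45, 4.33 and 11.5. None of the searched letters occurred in its printed promoter. Cox6a1, a regulatory subunit, had p53 summits 214 and 116 bp upstream of its start, scoring 3.34 and 3.62 and 98 bp apart, near its 2 NRF1 matches, which begin 162 and 117 bases upstream. Its highest p53 scores, 3.99 and 5.08, came from a second pair of summits over 4 kb away, 36 bp from Gatc and 32 bp from Triap1, a known p53 target.

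The ubiquitous subunit gene Cox4i1 had summits of 3.99 in p53 replicate 1 and 3.06 in PPAR-alpha, both nearer to Emc8, and none in replicate 2. Cox5a had a replicate 2 summit of 3.62 and a PPAR-alpha summit of 3.06, 94 bp apart, placed 26 and 120 bp upstream of a RefSeq start that lies inside the gene. Of the 7 complex IV isoforms restricted in tissue, none had a summit within 5 kb in any list. The nearest lay 24860 bp from Cox4i2 (lung), 31121 bp from Cox6a2, 45991 bp from Cox7a1 and 41017 bp from Cox8b (heart and skeletal muscle). For the testis forms it lay 11912 bp from Cox6b2, 613111 bp from Cox7b2 and 141254 bp from Cox8c. Among the 6 ubiquitous counterparts Cox4i1 and Cox6a1 were near a summit and 4 were not, at 27677 bp for Cox6b1, 21684 bp for Cox7a2, 807996 bp for Cox7b and 8073 bp for Cox8a. The counts were 0 of 7 and 2 of 6, beside 24.8% of all genes in any list, and with so few genes no difference between the classes was tested. Cox7b and the complex I genes Ndufa1 and Ndufb11 lie on chromosome X, where 0.415%, 0.623% and 0.935% of 963 genes were near a summit in p53 replicate 1, replicate 2 and PPAR-alpha.

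Complex V has a catalytic head, a proton-carrying ring of c subunits and a stalk that holds the head still. Atp5pb, the stalk's b subunit, had p53 summits 16 and 4 bp upstream of its start, 12 bp apart, with scores of 11.6 and 5.08 and none in PPAR-alpha. The c subunit is encoded by 3 genes whose mature proteins are the same, and the genes differed. Atp5g2 had p53 summits of 11.6 and 6.72, placed 32 and 63 bp downstream of its start. Atp5g3 had a replicate 2 summit of 5.88 placed 5 bp from its RefSeq start and none in the other lists. Atp5g1 had none closer than 213584 bp. Atp5b, the catalytic beta subunit, had a PPAR-alpha summit of 54.4 placed 163 bp upstream of its start, higher than 98.5% of that list, and only a replicate 2 summit of 2.37, 4257 bp away, from p53.

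Atp5l, which encodes the g subunit of the membrane part, had the highest replicate 2 score of the members, 9.40, and a PPAR-alpha summit of 4.70 at 73 bp from it, with none in replicate 1. Atp5d, the delta subunit of the head, had p53 summits of 3.99 and 5.88 that lay nearer to Midn, and weaker ones of 3.34 and 4.33 placed 192 and 759 bp upstream of its RefSeq start and nearer to Cbarp. Atp5h had PPAR-alpha summits of up to 5.91 and a replicate 2 summit of 2.97, all nearer to Kctd2 or Mrpl58. Atp5j had a replicate 2 summit of 2.97 placed 20 bp from its RefSeq start and 105 bp from Gabpa, which encodes the DNA-binding subunit of GABP. Atp5a1, the alpha subunit gene, had a replicate 1 summit of 4.70 nearer to Haus1.

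How strong and how close were the summits? The median of the highest score per gene was 5.45 for the members near a p53 replicate 1 summit, beside 3.99 for all genes near one. In replicate 2 it was 3.62, and in PPAR-alpha 4.70, each the same as over all such genes. A score of 10 or more was reached by 2 members in replicate 1 (2.25%), beside 0.730% of all genes, by none in replicate 2, beside 0.804%, and by 7 in PPAR-alpha (7.87%, 3.22 to 15.5%), beside 2.04%. The 7 were Cyc1, Atp5b, Uqcrh, Ndufb1, Ndufs7, Cox7a2l and Ndufa4, and only Cox7a2l of these was also in each p53 replicate. For Cyc1, Uqcrh and Ndufb1 the summit with this score lay nearer to another gene. The median distance to the nearer gene end was 348, 224 and 170 bp for members, and 422, 381 and 396 bp for all genes near a summit.

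Summits lay at starts, as they did over all genes. Of the 71 members with a RefSeq promoter record, 15, 27 and 17 had a summit within 1 kb of the start in p53 replicate 1, replicate 2 and PPAR-alpha (21.1%, 38.0% and 23.9%), beside 10.2%, 13.0% and 9.59% of all genes with a record. The other end had one in 0, 0 and 1 members (0%, 0% and 1.41%, the 1 being Ndufb6), near the 0.669%, 0.846% and 0.875% of all genes. Within 2 kb of a start, 9 of 16 replicate 1, 18 of 30 replicate 2 and 13 of 19 PPAR-alpha summits lay upstream. The PPAR-alpha summits scoring 10 or more in that range were all upstream, 6 of 6. Those of Uqcrh and Ndufb1 among them were nearer to another gene. No upstream share over all genes is given here, so these positions cannot be called particular to the members. Summits of both p53 replicates lay within 100 bp of each other at 7 members (7.87%, 3.22 to 15.5%), beside 3.27% of all genes: Atp5g2, Atp5pb, Cox6a1, Cox7a2l, Ndufb5, Ndufv2 and Uqcrc1. A p53 summit and a PPAR-alpha summit did so at 8 (8.99%, 3.96 to 16.9%), beside 4.04%: Atp5l, Cox5a, Cox7a2l, Ndufa13, Ndufa4, Ndufs4, Uqcr11 and Uqcrh.

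**Figure D4:**
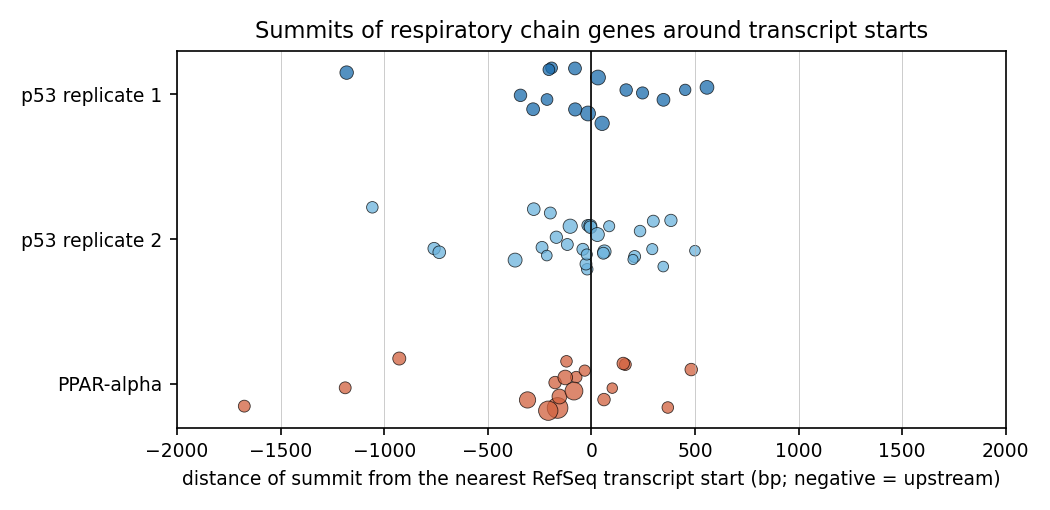
Distance of each member's summits from the nearest RefSeq transcript start (bp, negative upstream), with 1 row of symbols per list and an area that grows with the score; vertical scatter has no meaning. Within 500 bp of a start lay 14 of the 16 replicate 1 summits drawn, 27 of 30 in replicate 2 and 16 of 19 in PPAR-alpha.

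Members are short and often sit beside another gene, which moves with these counts. Their median length was 7082 bp, beside 17217 bp for all genes, and 50 of 89 (56.2%) had an end of another protein-coding gene within 1 kb, beside 24.8%. Among genes with such a neighbour, 28.0%, 44.0% and 26.0% of members were near a summit in p53 replicate 1, replicate 2 and PPAR-alpha, beside 22.1%, 28.4% and 20.9% of all genes. Among genes without one, 7, 12 and 8 of 39 members were (17.9%, 30.8% and 20.5%), beside 1643, 2056 and 1568 of all 16388 such genes (the last 2 counts being 12.5% and 9.57%). The members' share was thus higher in both classes and in each list. All counted summits were nearer to another gene for 11 of the 21 replicate 1 members, 9 of the 34 replicate 2 members and 8 of the 21 PPAR-alpha members. With each summit given only to its nearest gene, 10, 25 and 13 of these members remained. Of all genes near a summit, 2146 of 2834, 2735 of 3586 and 2058 of 2693 remained.

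What did the promoters hold? The NRF1 letters occurred in 17 of the 71 member promoters (23.9%), beside 7.17% of 17492 promoters of all genes. The YY1 letters (AAGATGGCG) occurred in 7 (9.86%), beside 2.14%, and the ETS letters (CCGGAAGT) in 5 (7.04%), beside 5.69%. The Sp1 letters were in 15.5% beside 17.3%, CCAAT in 43.7% beside 42.3%, and TATAAA in 11.3% beside 14.8%. The paired PPAR element (DR1, AGGTCA repeated with 1 base between) was in no member promoter and in 0.0572% of all, and its single AGGTCA unit, which lies within the pair, was in 23.9% beside 16.7%. The p53 decamer was in 5.63% beside 8.54%. Both strands were searched, a match is no evidence of binding, and no match says only that these letters are not in this window.

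Members with NRF1 letters differed between the lists, a split made after the values were seen. Of the 17, p53 replicate 1 had a summit near 6 (35.3%), replicate 2 near 11 (64.7%) and PPAR-alpha near 2 (11.8%, Atp5h and Ndufa11). Of the 54 without them the counts were 11 (20.4%), 19 (35.2%) and 17 (31.5%). Thus p53 summits were the more frequent at members with the NRF1 letters, and PPAR-alpha summits at members without them. The 5 members with ETS letters had 1, 2 and 4 near a summit in the same order of lists. The 66 without them had 16, 28 and 15. Over all genes with a record the shares were 20.9%, 29.2% and 22.7% with ETS letters and 12.9%, 16.1% and 12.1% without. For the 7 members with YY1 letters the counts were 2, 3 and 3, and for the 64 without them 15, 27 and 16. Shares over all genes were 21.7%, 29.1% and 20.9% with YY1 letters and 13.2%, 16.6% and 12.6% without. With 5 and 7 genes, neither split was tested. Over all genes with a record the NRF1 letters went with a higher share in all 3 lists, 32.4%, 42.0% and 27.1% with them and 11.9%, 14.9% and 11.6% without. The lower PPAR-alpha share at members with the NRF1 letters rests on 2 of 17 genes and was not tested.

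**Figure D5:**
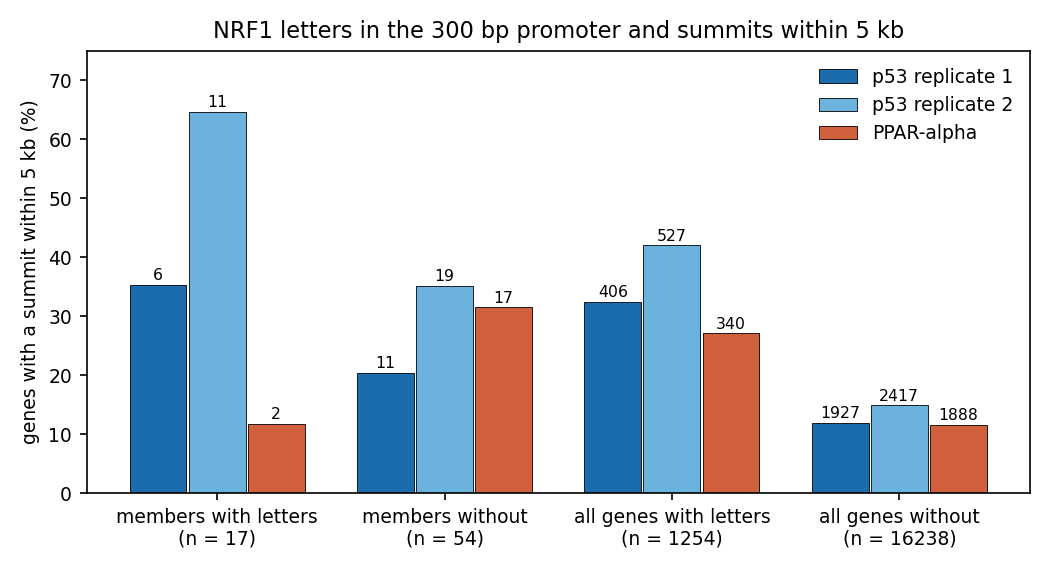
Share of genes (%) with a summit within 5 kb, for members and for all protein-coding genes, each split by the NRF1 letters in the 300 bp promoter, with 1 bar per list. Members with the letters stand at 35.3%, 64.7% and 11.8% in p53 replicate 1, replicate 2 and PPAR-alpha, and members without them at 20.4%, 35.2% and 31.5%.

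The promoters also differed in CpG dinucleotides, a mark of broadly used promoters. The median count in 300 bp was 19 for members and 15 for all genes. It was 20 (range 12 to 43) for the members with a summit in any list and 19 (2 to 39) for the members without one, so these differed little, and it was 24 for all genes with a summit. The 4 restricted isoforms with a record had a median of 8.5 (2 to 10), below every member with a summit and a record, and the 5 counterparts with one had a median of 19 (5 to 32). The part of CpG content in the isoform counts was not tested.

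Genes that build or control the chain were counted in the same way. The shares over all genes were 13.0%, 16.5% and 12.4% in p53 replicate 1, replicate 2 and PPAR-alpha, and 4.89% in all 3 lists. Among 47 assembly factors, 7, 13 and 8 were near a summit in p53 replicate 1, replicate 2 and PPAR-alpha (14.9%, 27.7% and 17.0%), closer to the shares of all genes than the subunits were. All 3 lists met at 3 assembly factors (6.38%), a share near that of all genes. They were Ndufaf3 for complex I (7.07, 5.88 and 3.06), Cox20, a chaperone of complex IV (4.70, 4.33 and 5.91), and Surf1, another complex IV assembly factor (3.99, 6.72 and 4.13). Among 17 genes that control mitochondrial biogenesis or mitochondrial DNA, 7, 8 and 5 were near a summit (41.2%, 47.1% and 29.4%). Polg, the mitochondrial DNA polymerase gene, was the only one of the 17 in all 3 lists, with scores of 9.72, 3.62 and 41.3. Its share of 5.88% was also near that of all genes. Among 16 near relatives outside the symbol rule, such as genes of coenzyme Q synthesis and of electron transfer flavoprotein, the counts were 1, 3 and 2. These shares (6.25%, 18.8% and 12.5%) were near or below those of all genes.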

How the data were processed

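For each ChIP library the authors deposited a list of summits with a score. The deposited scores were taken as −log10 values, from their range, and it is not stated whether they come from a p-value or a q-value. The submitters' processing notes name MACS2 2.1.2, Picard 2.9.0 and Bowtie2 2.3.4.2 without roles, and the human build GRCh38. The control, the threshold and the read depth were not given in the sources used. Positions were placed on GRCm38.p6, where 49.2%, 49.0% and 42.0% of summits (p53 replicate 1, p53 replicate 2, PPAR-alpha) lay within 1 kb of a gene end, against 6.38 to 7.82% after a shift of 50 kb.

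Counting used Python 3.11.15, numpy 2.4.6 and pandas 2.3.3 and was tested on simulated data. Starts, strands and promoters came from RefSeq records for 71 of the 89 members, so start and motif counts cover those only. 108 genes on unplaced scaffolds were left out, and mitochondrial genes are not analysed here. Intervals are exact Clopper-Pearson. No differential test was run. Scores were compared within a list. Named genes were members near a summit in each p53 replicate or all 3 lists, the 5 highest scores of each list, complex II, Cyc1, Cycs, the c subunit genes, the restricted isoforms with their counterparts, and members nearer to another gene; others named were chosen after their values were seen. The members, lists and rules were chosen with earlier results of these data known.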

Additional observations from a re-analysis of the deposited data

How the results depend on the processing

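Of 59 recounts, 35 stayed within 1.5 times the reported count and 24 did not. With scores of 5 or more only, p53 replicate 1, p53 replicate 2 and PPAR-alpha kept 11, 14 and 8 members (12.4%, 15.7% and 8.99%, beside 4.21%, 5.34% and 6.10% of all genes), each p53 replicate 6 and all 3 lists 0 (beside 1.98% and 1.16%). In any list, with 10.9% of all genes, complex I then had 11, complex IV 3, complex V 7 and the ubiquitous isoforms 1. With each summit given to its nearest gene, p53 replicate 1 had 10 and PPAR-alpha 13 members, each p53 replicate 8 (8.99%, beside 5.54%) and all 3 lists 2 (2.25%, beside 3.25%), and in any list, with 19.9% of all genes, complex III 3, complex V 7 and the ubiquitous isoforms 1. Within 20 kb each p53 replicate had 25 and all 3 lists 15, beside 13.9% and 9.35% of all genes. With 1 p53 library left out, the count for p53 ranged from 21 to 34, and that for p53 with PPAR-alpha from 9 to 14; the higher values are without replicate 1. At 50 bp, p53 summits met at 4 members and p53 with PPAR-alpha at 5 (beside 1.93% and 2.63%), and at 500 bp at 13 and 15 (6.36% and 7.55%). Fewer summits or a wider window change counts by construction. No paired analysis was possible because only the p53 group has replicates and no result comes from a test. Depth is unknown, so a missing summit does not show absence of binding, and the single PPAR-alpha library has no replicate check.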

Other observations

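These groupings were chosen after the values were seen. Among complex I genes for core subunits, Ndufs1, Ndufs8 and Ndufv2 had summits in each p53 replicate and none in PPAR-alpha, whereas Ndufs3 and Ndufv1 had summits in PPAR-alpha alone. Ndufs7 had them in p53 replicate 2 and PPAR-alpha. In complex V, 4 of the 5 genes of the catalytic head and 7 of the other 12 were near a summit in at least 1 list, beside 24.8% of all genes. Within 1 kb the counts were 3 of 5 and 6 of 12, beside 19.1%. Atp5a1 and Atp5d of the head, and Atp5h and Atp5j of the others, had only summits nearer to another gene. These differences were not tested.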
